A study of Drosophila melanogaster with 4 samples.

Results

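Long H1 domains are the stretches of 5000 bp or more that were called as enriched for the linker histone H1 in larvae of Drosophila melanogaster. They were chosen by their length in the combined table of the series, on X, 2L, 3L and 3R, and numbered 607 of the 14284 combined regions of those 4 arms and of the 18812 regions of the whole table. The study assayed wild-type Oregon-R animals at the third larval instar by ChIP-seq, with 2 H1 ChIP samples and 2 input samples, and the labels name no other allele and no treatment. Enriched regions were listed for ChIP replicate 1, for ChIP replicate 2 and for the combined table, on Release 5 of the genome. The input libraries were not analysed here, and the read depth behind the lists is unknown.

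H1 binds the nucleosome where DNA enters and leaves it and holds neighbouring nucleosomes together, which compacts the chromatin fibre. In flies it is needed for the structure of the polytene chromosomes of larval tissues and for silencing in heterochromatin, and active promoters hold little of it. An enriched stretch several kilobases long spans many nucleosomes. Per the labels' protocols larval tissue was homogenised and crosslinked as a whole, so many cell types are pooled, and fewer cells with H1 at a place and less H1 per cell cannot be told apart.

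Each domain has a length, a score and a cover. The score is the authors' own value, which behaves as a log2 ratio. The cover is the percent of the domain's bases that lie in regions of a replicate. The length chose the members, and the combined table was made for the same ChIP replicates as the separate lists, so the differences between long domains and shorter regions below are descriptions and no test was made of them. Means over the replicates carry an SD with n = 2, and since no label ties them to separate cultures or batches of animals, this spread may be technical. Gene content and sequence were not analysed here, since the gene positions at hand are of Release 6.

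The long domains were few among the regions but held a larger part of their length. They made up 4.25% of the combined regions of the 4 arms and 14.4% of the bases in them, 4.26 of 29.6 Mb. Lengths reached from 5003 to 20555 bp with a median of 6399 bp, and 55 domains measured 10000 bp or more. At the limit, the shortest member was on 3R at 5293040 to 5298042 with 5003 bp, followed by 2 of 5011 bp, at 14001180 to 14006190 of 2L and at 6666212 to 6671222 of 3L. The longest regions left out were on 2L at 15557790 to 15562788, 1 bp short of the limit, on X at 8278132 to 8283128 with 4997 bp, and on 3R at 4421044 to 4426036 with 4993 bp. The limit thus cuts a continuous range of lengths.

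The longest domain of each arm shows how the lists relate. On 3R the domain at 23620292 to 23640846 held 4 regions of replicate 1 and 6 of replicate 2, which covered 37.4% and 65.5% of its 20555 bp, with 34.0% covered by both. On 3L the domain at 5692540 to 5710388, of 17849 bp, had 38.7% of its bases in regions of replicate 1 and 23.6% in regions of replicate 2, with 14.7% in both. On 2L the domain at 4735050 to 4752348, of 17299 bp, was covered to 18.9% and 27.0%, with 7.97% in both. In each of these the replicates called separate short stretches where the combined table gave a single unbroken region. The longest domain of the X, at 5346090 to 5354508, measured only 8419 bp and was covered to 42.5% and 16.5%, with 2.51% in both.

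Of the other 7 among the 10 longest, 3 lay on 2L, 3 on 3R and 1 on 3L. On 2L the domains at 2049430 to 2064218 and at 2083046 to 2096868, of 14789 and 13823 bp, belonged to a group of 4 domains. Replicate 1 covered 30.2% of the first and replicate 2 45.1%, and of the second they covered 57.2% and 42.4%. Replicate 2 covered more of the first and replicate 1 more of the second. The domain on 2L at 10102848 to 10117360, of 14513 bp, was covered to 47.4% and 55.5% in replicates 1 and 2. It closed a group of 3 domains, with the domain before it 19001 bp away and the next 461819 bp away. On 3R the domains at 19385918 to 19402552, 26443908 to 26457794 and 25255998 to 25269520 measured 16635, 13887 and 13523 bp, and that on 3L at 9209972 to 9225756 measured 15785 bp. The cover of these 4 ranged from 19.4 to 32.9% in replicate 1 and from 21.1 to 48.1% in replicate 2. Every one of the 10 longest was thus covered in part by both replicates, and none was covered in full by either.

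**Figure D1:**
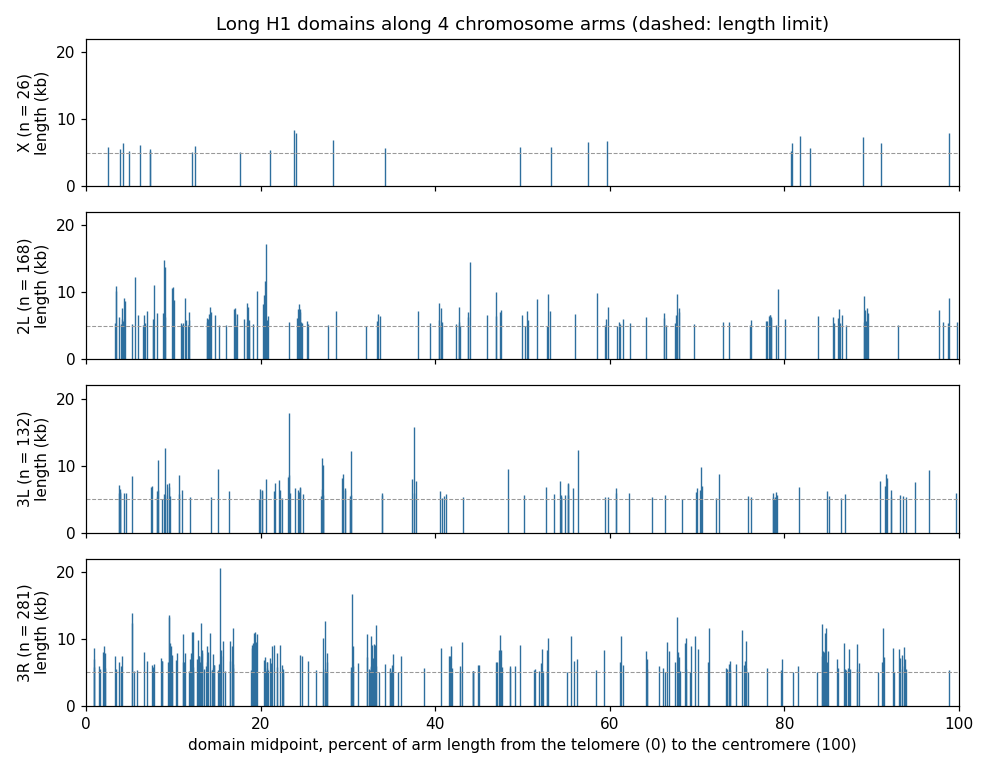
Length in kb (vertical) of each long domain at its midpoint, as percent of the arm from the telomere to the centromere (horizontal), for X, 2L, 3L and 3R; the dashed line marks 5 kb. The 26 domains of the X stand far apart and stay under 10 kb, while those of 3R crowd towards the telomere.

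Long domains were spread unevenly over the arms. The X held 26, or 1.16 per Mb, against 7.70 per Mb over the 581 domains of 2L, 3L and 3R, a ratio of 0.151. By arm there were 168 on 2L, 132 on 3L and 281 on 3R, or 7.30, 5.38 and 10.1 per Mb. Shorter regions differed far less between the arms, with 111 per Mb on the X and 148 per Mb on the 3 autosomal arms. Of all regions of an arm, 1.04% were long on the X and 6.18% on 3R. All 55 domains of 10000 bp or more lay on the autosomal arms, 33 of them on 3R, 14 on 2L and 8 on 3L. Arms are not replicates, and no correction was made for copy number. The ratio of the X was 0.324 when combined regions less than 500 bp apart were joined first and to 0.239 with a limit of 4000 bp.

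The few long domains of the X did not have lower scores. Their median score was 0.45 (lowest 0.40, highest 0.53), against 0.42 on the 3 autosomal arms, and shorter regions also had a higher median on the X, 0.44 against 0.38. Replicate cover was lower on the X, with 23.5% in replicate 1 and 21.0% in replicate 2, against 28.3% and 33.1% on the autosomal arms. The bases covered in both replicates made up 1.15% of the domains of the X and 8.90% of those of the autosomal arms. So in the X domains the replicates seldom called the same bases.

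Long domains lay more on the telomere side of their arm than shorter regions did. On X, 2L and 3L low coordinates are at the telomere, and on 3R they are at the centromere. Of the 607 domains, 383 had their midpoint in the 50% of the arm next to the telomere, a share of 63.1% (95% Wilson interval 59.2 to 66.8%, which covers counting of regions only), compared with 48.9% of the 13677 shorter regions. The share was 61.5% of the 26 domains on the X, 62.5% on 2L, 57.6% on 3L and 66.2% on 3R, against 51.4%, 45.8%, 49.8% and 49.1% of shorter regions, so it was higher for long domains on each of the 4 arms. Of 10 equal windows per arm, the second of 3R from the telomere was the fullest, with 63 long domains, which were 13.0% of all its regions. The first and second windows of 2L held 28 and 32, whereas the fourth held 6. On 3L the third window held 29 and the ninth 5, and on the X the seventh and eighth held 0. The telomere-side share was 55.5% when combined regions less than 500 bp apart were joined.

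Long domains came in groups. The distance from the end of a domain to the start of the next had a median of 31.8 kb over 603 distances, while the mean was 150.0 kb, and it was under 20 kb in 257 and 500 kb or more in 56. By arm the median was 488 kb on the X, 31.8 kb on 2L, 56.1 kb on 3L and 23.8 kb on 3R. Of the 607 domains, 384 had another within 20 kb, a share of 63.3% (Wilson 59.4 to 67.0%). The same was true of 44.7% of regions from 4000 to under 5000 bp, which had a long domain within 20 kb, of 32.7% from 2000 to under 3000 bp and of 21.9% under 2000 bp. Among domains of 10000 bp or more the share was 81.8%, so longer regions more often had a long domain nearby, except that the share was 62.2% from 8000 to under 10000 bp and 65.9% from 6000 to under 8000 bp. The shares by length pool the 4 arms and were not split by arm. The X held 2483 of the 13677 shorter regions but 26 of the 607 long domains, so its shorter regions lower these shares. On the X only 4 of 26 domains had another within 20 kb, and on 3R 195 of 281 did. The Wilson interval treats domains as independent, whereas closeness is mutual, so it may be too narrow.

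Joining domains less than 20 kb apart gave 127 groups of 2 or more and left 223 domains alone. Of these groups, 71 were pairs, 23 held 3 domains, and 16 held 5 or more. All 4 groups of 9 or more lay on 3R. The 12 domains from 24180178 to 24345486 measured 91.5 kb in all, 55.4% of a span of 165 kb, and all combined regions together covered 88.5% of it. The other 12, from 18724628 to 18852412, filled 62.7% of 128 kb, and combined regions 84.7%. The 10 domains from 22482042 to 22620724 filled 62.9% of 139 kb, and the 9 from 25152608 to 25278432 filled 62.8% of 126 kb. Combined regions of all lengths covered 80.0% and 88.9% of the last 2 spans. In 3 of the 4 groups shorter regions occupied more than 50% of what lay between the long domains, the exception being the group of 10. On the X the only groups were 2 pairs.

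**Figure D2:**
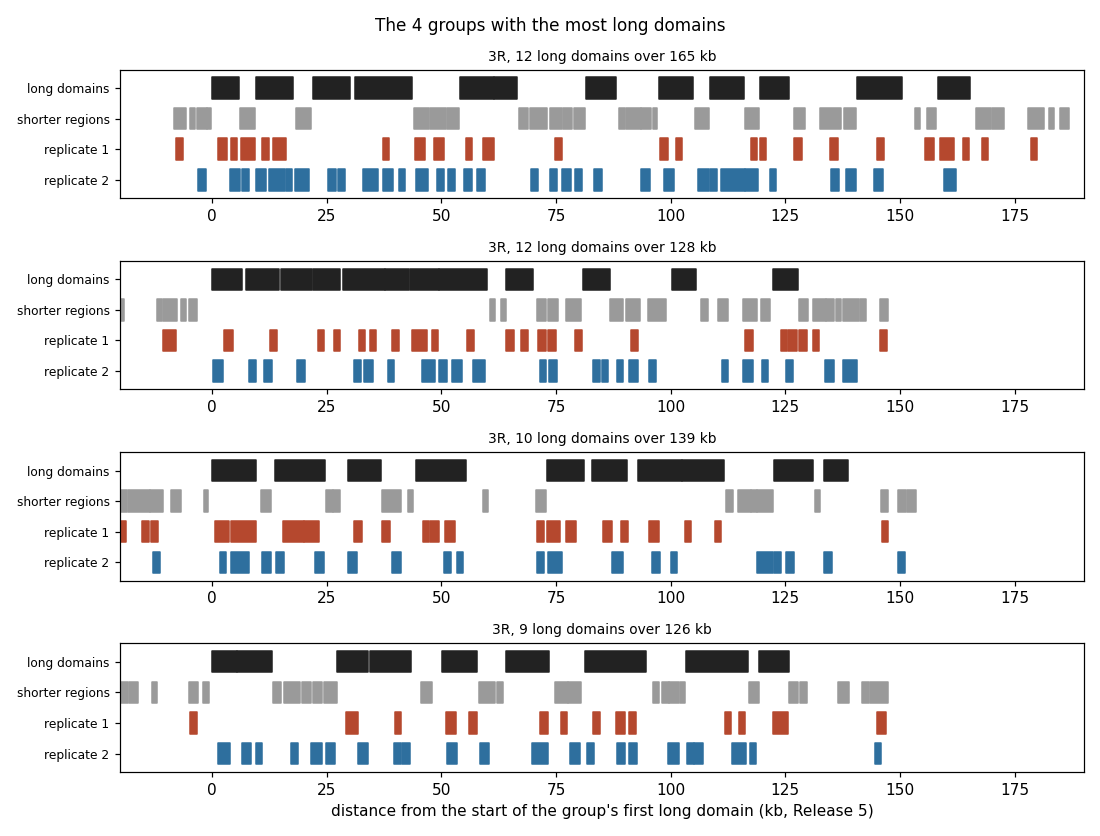
Long domains, shorter combined regions and the regions of replicates 1 and 2 (rows) along the 4 groups with the most long domains, by distance in kb from the start of the group's first domain. The combined regions fill 80.0 to 88.9% of the 4 spans, and the replicate regions fill 17.1 to 40.1% of them in pieces.

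Cover of these groups differed between the replicates. In the 12 domains from 24180178, replicate 1 covered 25.4% of the bases and replicate 2 42.0%. In the 12 from 18724628 the values were 29.2% and 31.9%, in the 10 from 22482042 they were 42.1% and 31.1%, and in the 9 from 25152608 they were 25.5% and 36.2%. Replicate 1 thus covered more in a single group of the 4. Over all 384 grouped domains the cover was 29.0% in replicate 1 and 34.7% in replicate 2, against 26.3% and 28.7% in the 223 domains that stood alone. Grouped domains had a median length of 6555 bp and a median score of 0.42, against 6131 bp and 0.41 for the others.

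The opposite of the groups were long stretches with no long domain. The longest ran on the X from 13396109 to 18102731, or 4.71 Mb, and held 475 shorter combined regions that covered 16.3% of it. Next came the X from 7693813 to 11157319, with 3.46 Mb, 375 shorter regions and 17.8% covered, and the X from 20425737 to 22158133, with 1.73 Mb and 22.6% covered. H1 regions were thus present in these stretches, but none reached 5000 bp. The longest on 3R, 3L and 2L measured 1.37, 1.28 and 1.07 Mb.

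Long domains had close neighbours in the combined table. The nearest combined region lay at a median of 299 bp from a long domain and 681 bp from a shorter region, and 404 long domains, or 66.6%, had a neighbour less than 500 bp away, against 42.8% of shorter regions. Regions on either side of the length limit differed little in this, with 59.5% and a median of 355 bp from 5000 to under 6000 bp and 62.6% and 323 bp from 4000 to under 5000 bp. Only 3 long domains had none within 5000 bp. Many limits of domains are therefore narrow breaks. Joining combined regions less than 500 bp apart gave 1379 regions of 5000 bp or more in place of 607, of which 544 held a long domain and 835 did not, and 43 of 20 kb or more. The longest, on 2L from 5626182 to 5672270, measured 46089 bp and was made of 13 combined regions, 2 of them long.

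The surroundings of long domains were rich in H1 regions as well. At 2 to 5 kb from the nearest long domain, combined regions covered 58.7% of the bases, replicate 1 11.2% and replicate 2 14.0%. At 20 to 50 kb these values were 32.5%, 5.22% and 5.94%, and beyond 50 kb they were 20.9%, 2.84% and 3.22%. The whole of the 4 arms, domains included, was covered to 30.2%, 5.11% and 6.14%. Coverage thus declined step by step from 1 to 2 kb outwards in the combined table and replicate 2. Closer than 1 kb it was lower than at 1 to 2 kb in all 3 lists, where the end of a region by itself leaves bases outside. The profile pools the 4 arms and was not split by arm. Combined regions covered 19.5% of the X, where long domains are few, and 33.4% of the autosomal arms.

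**Figure D3:**
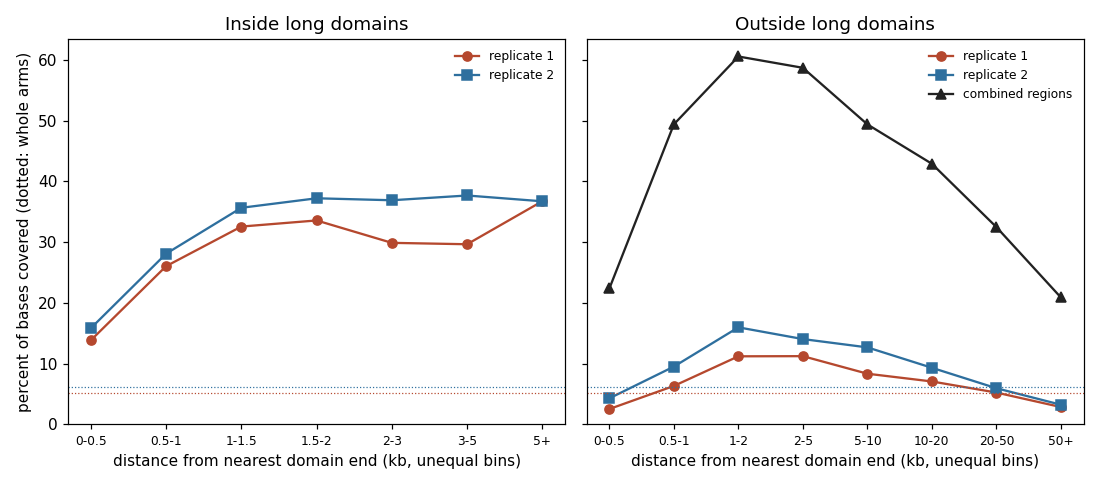
Percent of bases covered (vertical) by distance from the nearest end of a long domain (horizontal, unequal bins in kb), inside the domains at left and outside at right, with dotted lines at the 5.11% and 6.14% that replicates 1 and 2 cover of the 4 arms. Inside, both replicates cover least in the 0.5 kb next to the ends, 13.8% and 15.8%.

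Inside the domains the replicate regions covered the ends least. In the 500 bp next to an end replicate 1 covered 13.8% of the bases and replicate 2 15.8%, from 1500 to 2000 bp they covered 33.6% and 37.2%, and beyond 5000 bp 36.7% and 36.7%. The deepest class rests on 113 kb, from domains over 10000 bp. The shortest region in either replicate list measures 1301 bp, and regions of such length that lie inside a domain cover its ends less wherever they are placed. The low values at the ends are therefore not read as a trait of the domains. No trend is read between 1500 and 5000 bp, where replicate 1 went down to 29.6% and replicate 2 stayed at 37.7%.

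Most long domains were touched by at least 1 replicate. Replicate 1 overlapped 446 of the 607 by at least 1 bp (73.5%, Wilson 69.8 to 76.8%), where 19.0% of all combined regions of the 4 arms met it. Replicate 2 overlapped 473 (77.9%, 74.5 to 81.0%), with 22.1% over all regions. Both overlapped 344 (56.7%, 52.7 to 60.6%), with 6.78% over all, and neither overlapped 32 (5.27%, 3.76 to 7.35%), with 65.7% over all. These intervals too cover counting of regions only. A longer region meets other regions more often whatever it holds, so these shares rise with length in any case, and the cover per base is the closer comparison.

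By bases, long domains were covered to 28.1% in replicate 1 and 32.6% in replicate 2, a mean of 30.4 ± 3.20% (SD, n = 2). Shorter regions were covered to 14.4% and 17.3%, so the ratio was 1.96 and 1.89, a mean of 1.92 ± 0.0480 (SD, n = 2). Each arm showed the same order in both replicates, with ratios from 1.64 to 2.00. Most of this gap lay at the short end of the range: against regions from 3000 to under 5000 bp alone the ratio was 1.19. Under 2000 bp the mean cover was 8.91%, from 2000 to under 3000 bp 21.8%, from 4000 to under 5000 bp 27.2%, from 5000 to under 6000 bp 28.8% and at 10000 bp or more 33.8%. No step appeared at 5000 bp. The share of domains met by both replicates still climbed within the long class, with 42.5% from 5000 to under 6000 bp and 89.1% at 10000 bp or more.

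**Figure D4:**
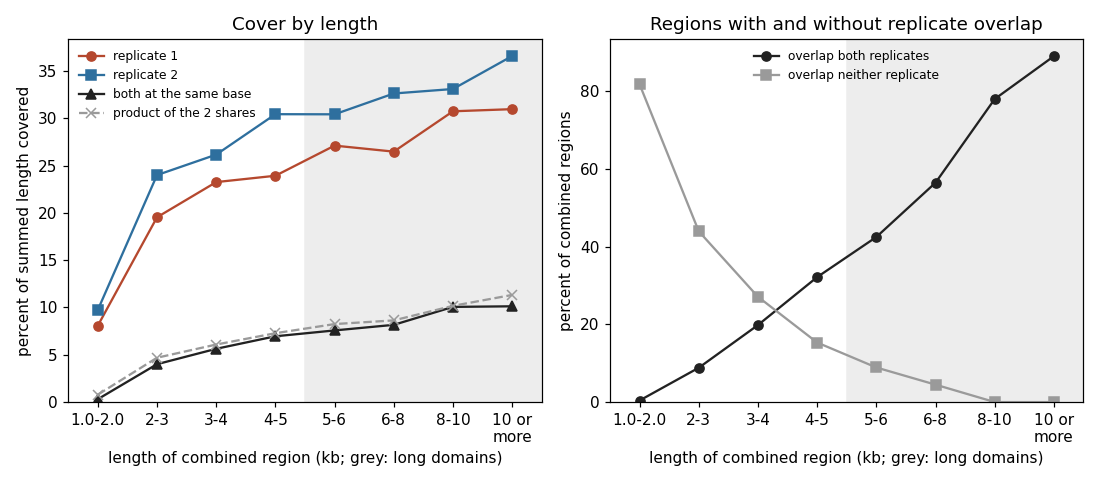
Left, percent of summed length covered by replicate 1, by replicate 2 and by both at the same base, with the product of the 2 shares, by length class of the combined regions; right, percent of regions that overlap both replicates or neither. The grey area marks the long domains, where cover rises slowly, to 31.0% and 36.6% at 10 kb or more.

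Within long domains the regions of the replicates mostly covered different bases. Replicate regions covered 52.1% of the length of long domains between them, while 8.60% was covered in both. The product of the 2 covers is 9.16%. It takes cover as even along and among domains, whereas both replicates covered the ends less. It is therefore a rough yardstick, not the value that unrelated placement would give. Over the 344 domains met by both, 14.0% of the bases were covered in both and the product taken domain by domain gave 14.6%, a ratio of 0.961. The same ratio was 1.04 in regions from 3000 to under 5000 bp and 1.07 in those under 3000 bp. The product ignores where in a region the cover lies, so no trend with length is read from these ratios. In 74 of the 344 domains (21.5%) the replicates shared no base at all. The same held for 57 of 367 regions (15.5%) from 3000 to under 5000 bp and 10 of 258 (3.88%) under 3000 bp. No test was made of these ratios, since the combined table was made for both replicates. The ratios describe the inside of these regions, not the agreement of the replicates along the arms. Over the whole of the 4 arms, replicates 1 and 2 covered 5.11% and 6.14% of the bases, and 1.03% was covered in both.

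Single domains differed widely in cover. Replicate 1 covered from 0 to 89.9% of a domain with a median of 26.6%, and replicate 2 from 0 to 96.4% with a median of 30.0%. Replicate 1 covered more in 267 domains and replicate 2 in 307, and 102 were met by replicate 1 alone and 129 by replicate 2 alone. Over the 607 domains, Spearman's rho between the covers was -0.05, a description across regions of the same libraries. So within this set a domain that was well covered in a replicate was not regularly well covered in the other. The set was selected in a table made for both replicates, and the value holds within that selection only. In 20 domains both replicates covered 50% or more. Neither this count nor those of domains met by 1 replicate alone were set against shorter regions.

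**Figure D5:**
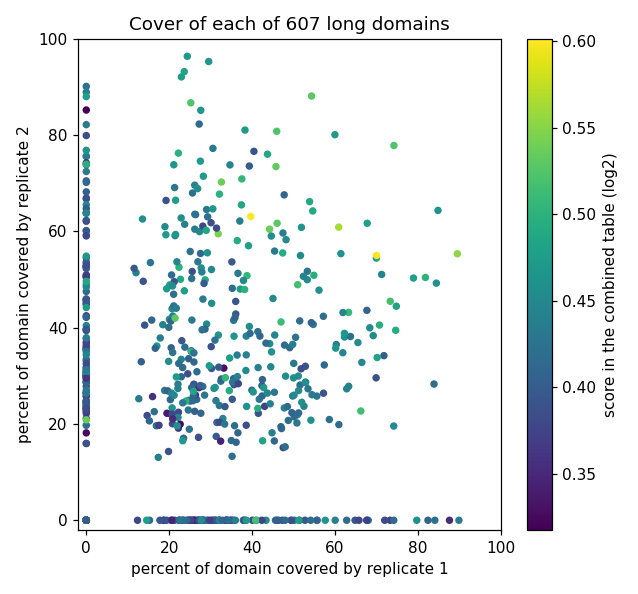
Percent of each of the 607 long domains covered by replicate 1 (horizontal) and by replicate 2 (vertical), coloured by the domain's score in the combined table. Points on the axes are the 102 and 129 domains met by a single replicate, and the scores run from 0.32 to 0.60.

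The 5 best-covered domains had more than 50% of their bases covered in each replicate. On 3R the domain at 1870014 to 1877222, of 7209 bp, had a cover of 74.2% in replicate 1 and 77.8% in replicate 2, and a single region of replicate 2, 5612 bp long, made up the whole of the second value. Its neighbour at 1888062 to 1893618 was covered to 84.8% and 64.4%. These 2 domains lie 10839 bp apart, near the centromere. The next was 3R at 22482042 to 22491624 with 89.5% and 55.4%. It was followed by 3R at 24189806 to 24197756 with 54.3% and 88.1%, and by 2L at 15292522 to 15297646 with 60.0% and 80.1%. The pair on 3R at 22482042 and 24189806 each belonged to a group of 10 or more domains.

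At the other end, 32 domains had no region of either replicate. The longest was on 2L at 1615420 to 1622722 with 7303 bp. It was followed by 3R at 24576976 to 24583976 with 7001 bp, 3R at 9963530 to 9970496 with 6967 bp, X at 6349238 to 6356158 with 6921 bp and 2L at 7686008 to 7692838 with 6831 bp. Their scores were 0.34, 0.34, 0.39, 0.49 and 0.38. The domain on the X thus had a score above the median of 0.42 for long domains with no call in either replicate, while the other 4 were below it. None of these 32 reached 8000 bp.

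Scores of long domains were modest and lay close together. Their median was 0.42, a ratio of 1.34, with quartiles of 0.39 and 0.45, against 0.38 for shorter regions, a difference of 0.033. The SD over regions was 0.044 for long domains and 0.088 for shorter ones, whose scores ran from 0.18 to 3.10. By length it was 0.098 under 2000 bp, 0.054 from 3000 to under 5000 bp and 0.031 at 10000 bp or more. The narrow spread is thus not particular to long domains. Against regions from 3000 to under 5000 bp the difference in medians was 0.013. Long domains were thus not the places of the highest scores. The highest among them were 0.60 at 23297378 to 23304902 of 3L, and 0.60 and 0.56 at 16948308 to 16953868 and 22758610 to 22767794 of 2L. The 3 lowest, all 0.32 and all on 3L, were at 24457626 to 24463606, 17717352 to 17722482 and 20044934 to 20051738.

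Within the long domains, score and cover went together. In the 152 domains with the highest scores replicate 1 covered 38.8% and replicate 2 46.0%, with 17.3% in both, while in the 152 with the lowest scores these were 17.8%, 21.7% and 2.37%. Of the 32 domains without cover, 18 were among the 152 lowest scores and 2 among the 152 highest. Spearman's rho over the 607 domains was 0.57 between score and mean cover and 0.12 between length and mean cover. Both come from the same libraries, and no p is given.

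Near the centromere the replicates parted on 2L and 3L. In the 1 of 10 windows next to the centromere, replicate 1 covered 18.2% and replicate 2 55.1% of the 14 domains of 3L, and 22.6% and 53.0% of the 6 of 2L. In the other 9 windows the values were 28.2% and 29.3% on 3L and 28.3% and 32.2% on 2L. The last domain of 3L, at 24457626 to 24463606, had no cover in replicate 1 and 85.2% in replicate 2, with a score of 0.32. On 3R the 15 domains of that window were covered to 37.8% and 40.2%, so the gap between replicates was small there. The X had only 2 domains in that window, covered to 23.9% and 38.0%. Cover of shorter regions in these windows is not given here, so the gap is not read as particular to long domains. The cause was not tested.

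Seen from the replicate lists, most calls lay outside long domains. Of the 2978 regions of replicate 1 on the 4 arms, 647, or 21.7%, overlapped a long domain, and of the 3439 of replicate 2, 707, or 20.6%. By bases the shares were 23.9% and 23.1%, where long domains make up 14.4% of the bases in combined regions and 4.36% of the arms. The combined table was made for the same replicates, so the share of the arms is no independent yardstick. Replicate regions in long domains had a median length of 1652 and 1719 bp in replicates 1 and 2, against 1510 and 1550 bp elsewhere, and median scores of 0.55 and 0.59, against 0.53 and 0.57. In each replicate the values in long domains were slightly higher than elsewhere. A domain met by replicate 1 most often held 1 region of it, in 276 domains, or 2, in 145, and replicate 2 gave 283 and 150.

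These values depend on which regions entered. With replicate regions at or above the median score of their list, cover of long domains was 19.1% and the share met by both replicates 28.3%. Neither read depth nor the caller and its threshold is given in the sources used here, so the lengths of domains cannot be set against sequencing depth.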

How the data were processed

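Regions enriched for H1 came from a list for each of 2 ChIP replicates and from 1 combined list; input libraries were not used here. The authors deposited the start, end and score of each region. Per the file headers positions are on FlyBase Release 5. The submitters' processing notes name Bowtie 0.12.7 without its role. How regions were called, at what threshold, with or without the input, and how replicates were combined is not given in the sources used here. The deposited score was read as a log2 ratio: 2 raised to it was a list's constant times a fraction of whole numbers, with denominators of at most 5000 and a relative tolerance of 1e-11, for 98.0% of combined regions, 99.97% in replicate 1 and 99.8% in replicate 2, and for 0% of any list after a shift.

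Domains, cover, distances and groups were computed in Python 3.11.15 (pandas 2.3.3, numpy 2.4.6, scipy 1.17.1), drawn with matplotlib 3.10.9, and the cover and joining steps were tested on simulated regions. Overlap means at least 1 bp. No regions were filtered out. Depth is unknown. The members, limits and comparisons were chosen with earlier results of these data known. Regions named are the 10 longest, the longest of each arm, the 5 best covered, the 5 longest without cover, the 3 groups with the most domains (the fourth was added after its size was seen), the 3 longest distances, 3 on each side of the length limit, and the 3 highest and 3 lowest scores. Other length limits, joined regions, score limits, distances and leaving out each replicate were tried.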

Additional observations from a re-analysis of the deposited data

How the results depend on the processing

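Of 49 alternatives over 8 results, 22 stayed within the spread or interval (counts within 1.5 times) and 27 moved. Only the score difference was checked for a reversal, and it did not reverse. The intervals treat domains as independent, so these labels are a rough guide. With limits of 4000 and 6000 bp there were 1070 and 360 long regions, 71.9% and 54.4% had another within 20 kb, and 46.1% and 66.4% met both replicates; at 4000 bp the ratio of cover to shorter regions was 1.98 and domains per Mb on the X were 0.239 of those on the autosomal arms. Joining regions less than 500 bp apart gave 1379 long regions, cover of 23.4%, a cover ratio of 1.72, an X ratio of 0.324, 77.7% with another within 20 kb, 48.5% met by both, 55.5% on the telomere side and a score difference of 0.017. Combined regions at or above the median score gave a cover ratio of 1.67, 65.5% met by both and a score difference of 0.0057. Replicate regions at or above their median gave cover of 19.1%, a cover ratio of 2.44 and 28.3% met by both. Regions from 3000 to under 5000 bp as the shorter set gave a cover ratio of 1.19 and a score difference of 0.013, and the mean over the 4 arms a cover ratio of 1.85. Within 10 kb 45.6% had another long domain, and within 50 kb 76.3%. Leaving out each replicate gave cover from 28.1 to 32.6% and a cover ratio from 1.89 to 1.96. With 2 replicates such a value always lies within their SD of the mean, so these counted as unmoved by construction. For the limits and distances the change follows from which regions enter; for the others the cause was not tested. No paired analysis was possible because the values come from no test and the input libraries, which share the replicate numbers, were not used. Depth is unknown.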

Other observations

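Among chromosome 4, the heterochromatic sequences and the unplaced sequence U, stretches of 5000 bp or more were found on 2RHet, 3LHet and 3RHet alone. The arm 2R was not analysed here. Of the 1432 combined regions on chromosome 4, heterochromatic and unplaced sequences, 10 reached that length, with 4 on 2RHet, 4 on 3LHet and 2 on 3RHet, and the longest measured 10521 bp. Replicate 1 overlapped 5 of them and replicate 2 9, and they covered 18.3% and 37.0% of the summed length of 62832 bp. On chromosome 4, with 56 combined regions, the longest was 2859 bp, and on U, with 444, it was 4869 bp.

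Single replicates called few stretches of this length on the 4 arms, 3 in replicate 1 and 10 in replicate 2. Of these 13 regions, 12 overlapped a long domain. The longest was in replicate 2 on 2L at 22490570 to 22497555, with 6986 bp, and lay on a domain of 7431 bp. The longest of replicate 1 was on 2L at 22759024 to 22764616, with 5593 bp, inside a domain of 9185 bp. The region that met no long domain was in replicate 1 on 3R at 22302565 to 22307657, with 5093 bp and a score of 0.63. These regions were named after their values had been seen.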
